A study of Mus musculus with 6 samples.

Results

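The genes described here encode the major histocompatibility complex (MHC, called H2 in the mouse) and the proteins that load and control it. They were chosen by symbol: every row of the deposited expression table whose symbol starts with H2- (4 rows marked -ps as pseudogenes were left out), which gave 41 rows, and the 7 genes B2m, Tap1, Tap2, Tapbp, Cd74, Ciita and Nlrc5. The members are 48 of 48699 rows. They comprise 2 classical class I genes, 27 nonclassical class I genes, 9 class II genes, the 7 genes of processing and control, H2-Ke6, and the annotated pseudogenes H2-Pa and H2-Pb.

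Liver mRNA was compared between 3 mice labelled hepatocyte-specific fxr-/- shp-/- (the knockouts) and 3 mice labelled Fxrfl/fl Shpfl/fl (the floxed controls). All were C57BL/6 males of 10 to 12 weeks, fasted for 8 to 10 hours overnight, and the column names mark them as chow samples; no further treatment is named. FXR (gene Nr1h4) is the bile acid receptor and SHP (Nr0b2) a nuclear receptor that represses transcription; the labels used here do not name the driver of the deletion. Whole liver was measured, so other liver cells, whose alleles the label leaves intact, contribute to every value, and fewer cells of a type cannot be told apart from less RNA per cell.

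Class I molecules pair a heavy chain with the light chain B2m and show peptides from inside the cell to CD8 T cells; nearly all nucleated cells, hepatocytes included, make them. The transporter Tap1-Tap2 carries peptides into the endoplasmic reticulum, tapasin (Tapbp) holds the empty heavy chain beside it, and Nlrc5 drives transcription of class I genes. Class II molecules show peptides from endosomes to CD4 T cells and are made mainly by dendritic cells, B cells and macrophages, under the control of Ciita. Cd74, the invariant chain, escorts them, and the H2-DM molecule exchanges their peptides.

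The promoters of both classes share a module, the SXY module, in which the X2 box resembles a cyclic AMP response element and the Y box is an inverted CCAAT box. Upstream stretches of 6 members are shown. H2-Q10 and H2-Aa are the most abundant class I and class II genes. The other 4, picked once their values were known, are the light chain B2m, a classical heavy chain, the heavy chain H2-Q7 that the authors' table called lower, and H2-Eb1, whose level went with that of H2-Aa. The stretches are RefSeq sequence on GRCm38.p6, 5′ to 3′ on the gene's strand, and end at the base before the start that RefSeq annotates. Distances before the start refer to that RefSeq start. For H2-D1 the stretch lies inside the gene as GENCODE M21 places it (from 35262730). Capitals mark CCAAT on either strand (ATTGG when read from the other strand), TGACG on either strand, and the core of an interferon-stimulated response element (GAAA, any 2 bases, GAAA). H2-Q10 holds none of these exact patterns.
B2m, chr2:122147437-122147686, + strand: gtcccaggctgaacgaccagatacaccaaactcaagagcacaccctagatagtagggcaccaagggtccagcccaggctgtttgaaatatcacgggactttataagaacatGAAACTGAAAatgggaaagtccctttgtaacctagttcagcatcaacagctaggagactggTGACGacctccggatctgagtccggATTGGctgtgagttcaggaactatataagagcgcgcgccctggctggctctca
H2-D1, chr17:35262844-35263093, + strand: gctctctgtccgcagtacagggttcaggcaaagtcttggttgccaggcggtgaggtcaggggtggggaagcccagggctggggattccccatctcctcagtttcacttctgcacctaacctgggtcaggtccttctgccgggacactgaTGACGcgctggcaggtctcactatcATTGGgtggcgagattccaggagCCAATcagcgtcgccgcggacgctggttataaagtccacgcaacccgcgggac
H2-Q7, chr17:35438905-35439154, + strand: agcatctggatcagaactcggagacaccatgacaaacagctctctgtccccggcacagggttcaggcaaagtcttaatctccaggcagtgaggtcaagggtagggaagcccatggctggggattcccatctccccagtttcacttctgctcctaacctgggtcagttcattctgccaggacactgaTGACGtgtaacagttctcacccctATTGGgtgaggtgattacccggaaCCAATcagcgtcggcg
H2-Q10, chr17:35469839-35470088, + strand: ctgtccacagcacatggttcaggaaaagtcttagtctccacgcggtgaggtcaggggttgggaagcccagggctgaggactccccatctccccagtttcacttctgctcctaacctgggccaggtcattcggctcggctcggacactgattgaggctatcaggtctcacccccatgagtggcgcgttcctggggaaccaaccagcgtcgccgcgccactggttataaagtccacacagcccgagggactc
H2-Aa, chr17:34287824-34288073, - strand: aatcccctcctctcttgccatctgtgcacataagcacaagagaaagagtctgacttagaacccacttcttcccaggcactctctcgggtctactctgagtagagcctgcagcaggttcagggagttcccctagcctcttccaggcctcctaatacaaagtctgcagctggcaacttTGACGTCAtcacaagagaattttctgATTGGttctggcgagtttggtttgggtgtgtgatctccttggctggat
H2-Eb1, chr17:34305617-34305866, + strand: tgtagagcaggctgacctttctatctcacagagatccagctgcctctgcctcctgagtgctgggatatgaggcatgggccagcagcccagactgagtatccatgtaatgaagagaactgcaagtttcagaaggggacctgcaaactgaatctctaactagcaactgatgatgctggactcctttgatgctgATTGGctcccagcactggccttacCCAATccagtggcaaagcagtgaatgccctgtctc
In H2-Aa the TGACG matches of both strands overlap as a palindrome. The Y box letters ATTGG begin 48 bases before the start in H2-Aa, 59 in H2-Eb1, 53 in B2m, 76 in H2-D1 and 40 in H2-Q7, each in the reverse orientation, and TGACG begins 74 bases before the start in H2-Aa, 78 in B2m, 101 in H2-D1 and 64 in H2-Q7. RefSeq windows were found for 34 of the 48 members, 37 windows in all, which run from this upstream stretch across the start. CCAAT was present in a window of 31 of these 34 genes and in 37.4% of all RefSeq promoter windows. TGACG was present in 14 of the 34 and in 20.8% of all windows, and the interferon response core in 3 of the 34 (B2m, H2-T22 and H2-T23) and in 3.44% of all windows. H2-Q10 was 1 of the 3 genes without CCAAT in any window. A match is a run of letters and not a measured binding site, and these mice's own sequence was not read. The search allowed no other spelling. A stretch without a match, such as that of H2-D1, H2-Q7 or H2-Q10 for the interferon response core, can thus still hold a variant of the element.

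The deleted genes went with the labels. Nr0b2 was at 0.216, 0.0734 and 0.293 FPKM in knockouts, against 14.7, 17.6 and 18.7 FPKM in controls (FPKM is the fragment count scaled to transcript length and library depth). Nr1h4 was at 21.1, 15.5 and 22.04 FPKM in knockouts, against 59.8, 71.8 and 68.0 FPKM in controls. Both were called lower, with log2 fold changes of -3.91 for Nr0b2 (limma adjusted p = 0.000277) and -1.73 for Nr1h4 (0.0172). The FPKM of all rows summed to 688182, 610618 and 697877 in knockouts, against 702759, 789099 and 841745 in controls. From the smallest steps in the values, 1 fragment was worth 0.0707 to 0.0758 FPKM in a transcript of 1 kb, which puts the depth of the 6 libraries close together. Control 3 and knockout 2 stood apart in their markers of other cells, given with the class II genes.

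In livers without hepatocyte FXR and SHP, no MHC or antigen processing gene differed past the threshold of the test over all genes. Of the 48 members, 26 averaged 0.5 FPKM or more across the 6 libraries and were tested with limma on log2(FPKM + 1). At a Benjamini-Hochberg adjusted p under 0.05, 0 members were called, against 0.313% of the 11810 rows tested (0.169% higher and 0.144% lower in knockouts). At an unadjusted p under 0.05 there were 4, H2-Q1, H2-Q7 and H2-K1 lower and Tap1 higher in knockouts, where 14.9% of all tested rows passed (6.97% higher and 7.98% lower), so the members' share is near the background. The authors' deposited table called H2-Q1 and H2-Q7 lower in knockouts, 2 of the 26 members with a test there, where 4.58% of rows were called (2.85% higher and 1.73% lower). The fold changes of the tested members were 13 positive and 13 negative, with a median of -0.01 beside -0.01 over all tested rows. The groups did not overlap in 7 members, 5 lower and 2 higher in knockouts, and in 22.9% of all tested rows (11.6% lower and 11.3% higher), which is again near the members' share.

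**Figure D1:**
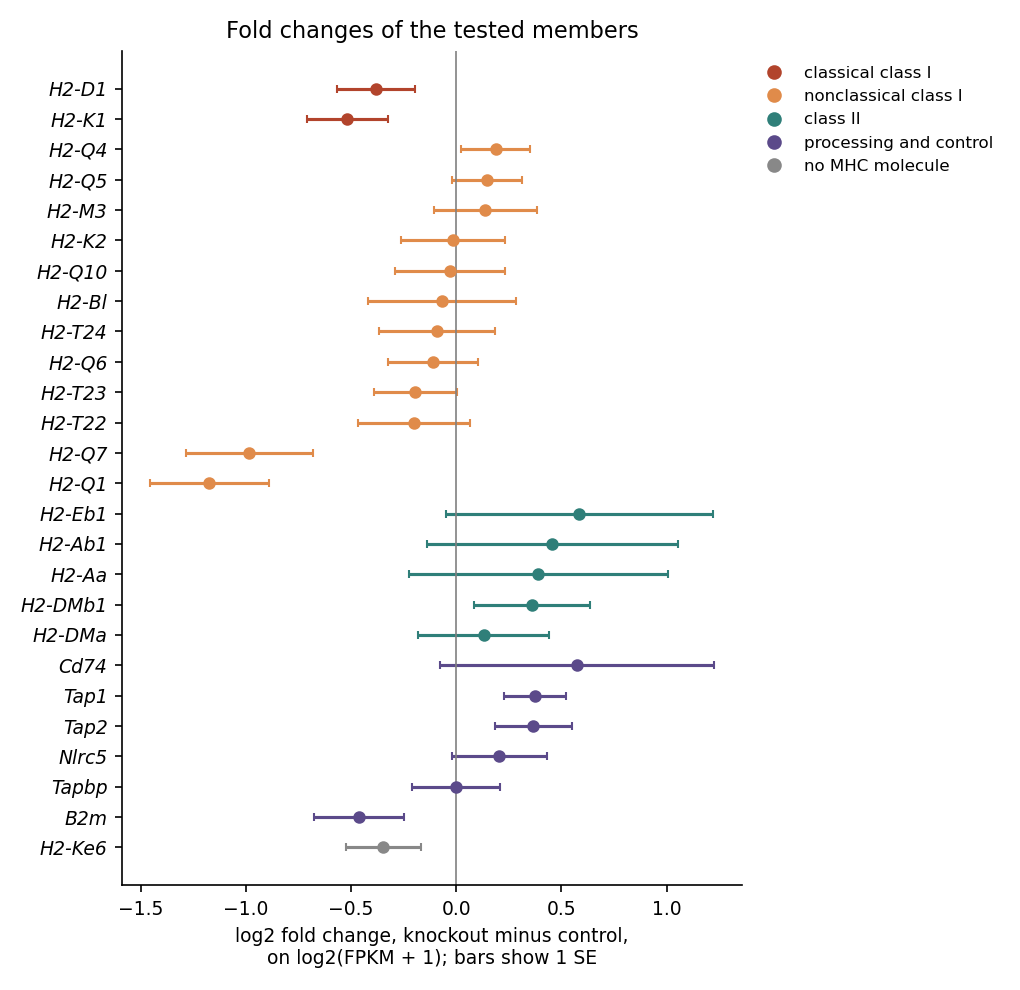
Points are log2 fold changes (knockout minus floxed control, log2(FPKM + 1) scale) of the 26 tested members, coloured by class, and bars are 1 standard error. H2-Q1 and H2-Q7 lie farthest to the left, at -1.17 and -0.98, Cd74, H2-Eb1, H2-Aa and H2-Ab1 have the longest bars, and no member passed the threshold.

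The classical class I heavy chains and their light chain were the abundant members whose groups stood apart. H2-K1 (chromosome 17, 33996017 to 34000347, GRCm38), 1 of the classical heavy chains of this strain, measured 529, 521 and 601 FPKM in knockouts, against 724, 956 and 702 FPKM in controls. The groups did not overlap: the highest knockout lay below the lowest control, and control 2 was well above the rest. The means were 550 ± 44.1 FPKM in knockouts and 794 ± 141 FPKM in controls (SD, n = 3 each). On the log2 scale the difference was -0.52 (SE 0.19, limma adjusted p = 0.290). The other classical gene, H2-D1 (chromosome 17, 35262730 to 35267499), measured 178, 201 and 198 FPKM in knockouts, against 207, 305 and 249 FPKM in controls. Its groups also did not overlap, though knockout 2 and control 1 were close. Its difference on the log2 scale was -0.38 (SE 0.18, limma adjusted p = 0.377). B2m (chromosome 2, 122147686 to 122153083), the light chain, measured 2073, 1824 and 1961 FPKM in knockouts, against 2469, 3221 and 2430 FPKM in controls. All 3 knockouts lay below all 3 controls, at 1953 ± 125 FPKM against 2707 ± 446 FPKM (SD, n = 3 each), and its log2 fold change was -0.46 (SE 0.21, limma adjusted p = 0.364).

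The separation of these 3 genes depended on the scale. With each library scaled to the same FPKM sum, H2-K1 was at 768, 853 and 861 in knockouts, against 1031, 1212 and 834 in controls, so the groups overlapped. On that scale B2m was at 3013, 2988 and 2809 in knockouts, against 3514, 4082 and 2887 in controls, and H2-D1 at 259, 330 and 284 in knockouts, against 295, 386 and 296 in controls, each with an overlap. That scale, chosen after seeing that the sums differ, moves the median log2 fold change of all tested rows to 0.18. Relative to the median of all tested rows, the median of H2-K1 and H2-D1 was -0.44 on the deposited scale, -0.40 on the rescaled one and -0.18 after quantile normalization. Ratios within a library do not depend on the scale. H2-K1 over B2m, both per length, was 0.255, 0.285 and 0.306 in knockouts and 0.293, 0.297 and 0.289 in controls. H2-D1 over H2-K1 was 0.337, 0.387 and 0.329 in knockouts and 0.286, 0.319 and 0.355 in controls, and both ratios overlapped between the groups.

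**Figure D2:**
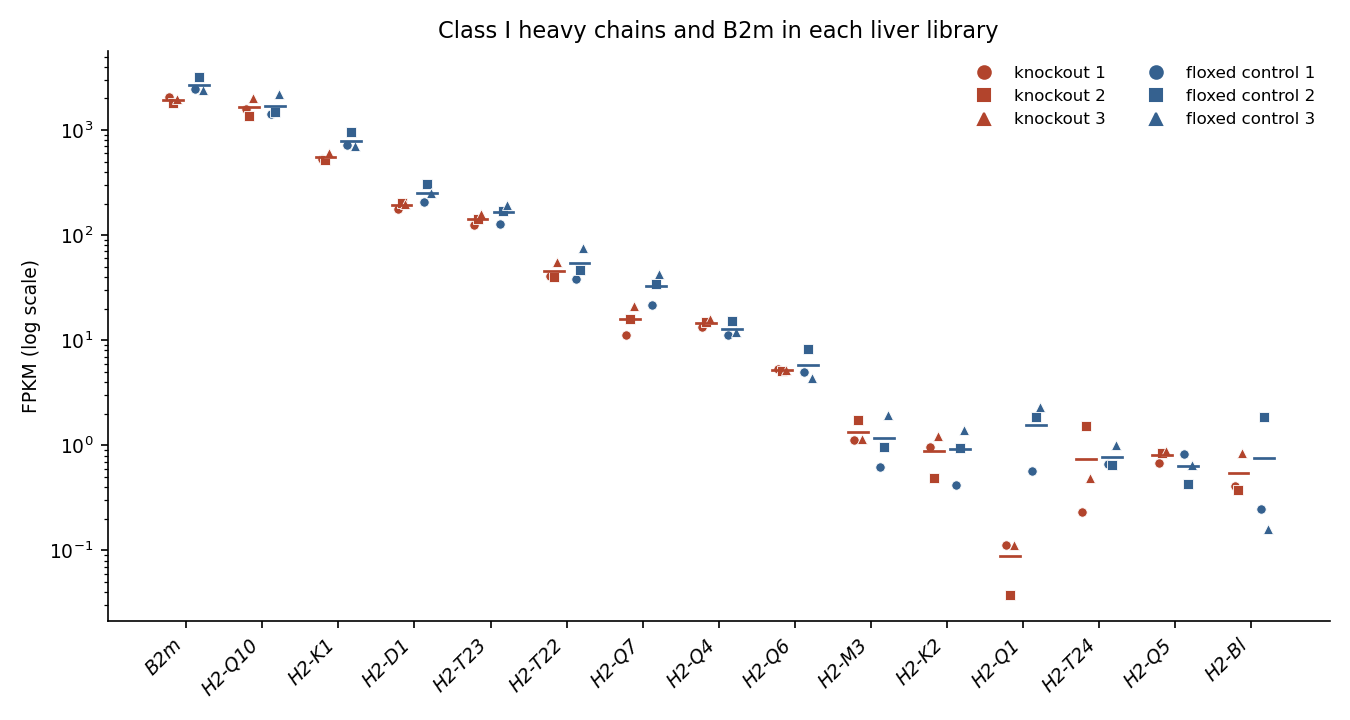
FPKM (log axis) of B2m and the 14 tested class I heavy chain genes, ordered by mean level, with 3 knockouts left of 3 floxed controls for each gene, 1 marker shape per replicate number and lines at the group means. B2m, H2-K1, H2-D1, H2-Q7 and H2-Q1 have no overlap between the groups, while H2-Q10, the most abundant heavy chain, overlaps.

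Of the nonclassical class I genes, 12 of 27 were tested, 3 with a positive and 9 with a negative fold change and a median of -0.08. The median moved to 0.05 on the rescaled values and to 0.04 without control 3, and was 0.0056 without knockout 2, so its sign depended on the scale and on single libraries. The most abundant was H2-Q10 (chromosome 17, 35470089 to 35474563), a class I heavy chain that the liver secretes. It measured 1592, 1375 and 2009 FPKM in knockouts, against 1413, 1482 and 2227 FPKM in controls. Replicate 3 was the highest of each group and the groups overlapped throughout, and the log2 difference was -0.03 (SE 0.26, limma adjusted p = 0.971). H2-Q10 alone held 63.7%, 59.3% and 65.4% of the summed class I heavy chain FPKM in knockouts, against 55.3%, 49.0% and 63.3% in controls. H2-K1 held 21.2%, 22.4% and 19.6% in knockouts, against 28.4%, 31.6% and 19.96% in controls. Controls 1 and 2 thus had the smallest H2-Q10 and the largest H2-K1 shares, and control 3 lay among the knockouts in both. The summed heavy chain signal itself overlapped between the groups, at 2321 to 3072 FPKM in knockouts and 2553 to 3518 FPKM in controls.

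**Figure D3:**
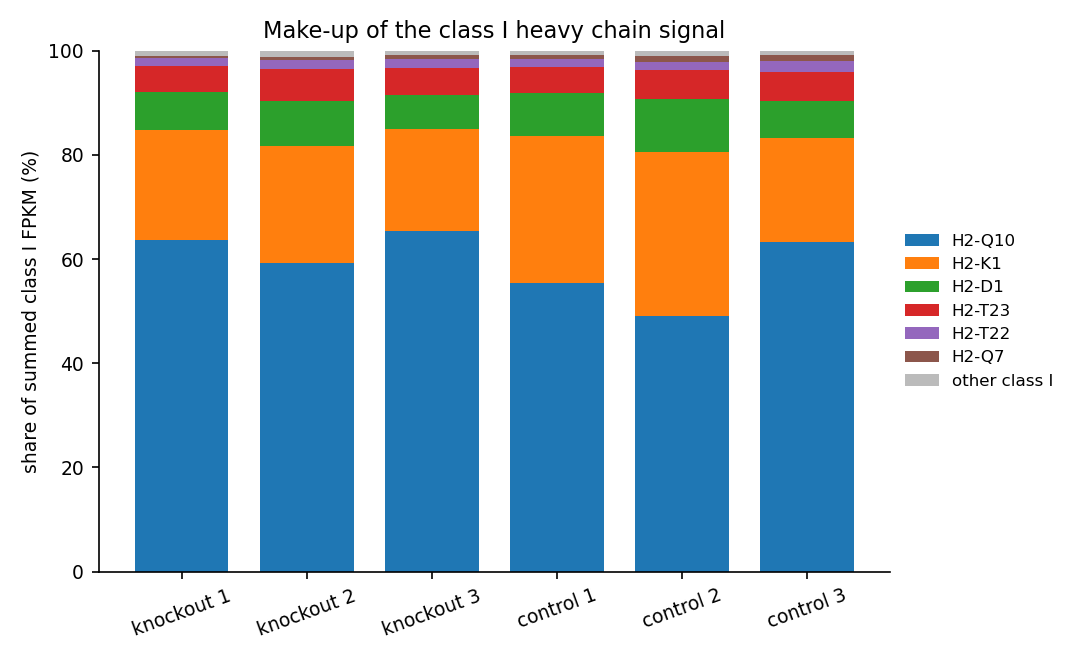
Stacked bars give the percentage of summed class I heavy chain FPKM held by each gene in each library, knockouts left of floxed controls. H2-Q10 is the largest part of every bar, from 49.0% in control 2 to 65.4% in knockout 3, followed by H2-K1.

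H2-Q7 (ENSMUSG00000060550.15, chromosome 17, 35439155 to 35443773) encodes a Qa-2 antigen, a heavy chain anchored in the membrane by a lipid. It measured 11.1, 15.8 and 21.2 FPKM in knockouts, against 21.8, 34.1 and 42.7 FPKM in controls. The groups did not overlap, but knockout 3 and control 1 nearly met, and the spread within each group was wide. The means were 16.0 ± 5.08 FPKM in knockouts and 32.9 ± 10.5 FPKM in controls (SD, n = 3 each), 2.05-fold higher in controls. The log2 fold change was -0.98 (SE 0.30, limma adjusted p = 0.222), and the authors' deposited table gave q = 0.00569. The groups stayed apart on the rescaled values, at 16.1, 25.9 and 30.4 in knockouts and 31.0, 43.2 and 50.8 in controls. Its neighbour H2-Q6, also of the Qa-2 group, measured 5.30, 5.09 and 5.19 FPKM in knockouts, against 5.04, 8.18 and 4.402 FPKM in controls, with an overlap. The ratio of H2-Q7 to H2-Q6 was 2.10, 3.10 and 4.09 in knockouts, against 4.32, 4.17 and 9.71 in controls, without overlap. Its ratio to H2-Q10 did not overlap either, at 0.00697, 0.0115 and 0.0106 in knockouts and 0.0154, 0.0230 and 0.0192 in controls. The ratio of H2-Q7 to H2-K1 did overlap, at 0.0210, 0.0303 and 0.0354 in knockouts and 0.0300, 0.0356 and 0.0609 in controls. The H2-Q genes are near copies of each other, and the labels do not say how reads shared among them were assigned, so a value of H2-Q7 or H2-Q6 alone is uncertain.

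H2-Q1 (ENSMUSG00000079507.10, chromosome 17, 35320405 to 35325099), a nonclassical heavy chain of the same cluster, had the largest fold change of any tested member. It measured 0.113, 0.0378 and 0.113 FPKM in knockouts, against 0.566, 1.85 and 2.30 FPKM in controls. Every knockout lay below every control, and control 1 was well below controls 2 and 3. Its log2 fold change was -1.17 (SE 0.28, limma adjusted p = 0.160), the lowest adjusted p among the members, and the authors' deposited table gave q = 0.00319. It passed the filter on low values only through the controls. Over its 2860 annotated exon bases these levels correspond to at most 4.53, 1.51 and 4.53 fragments in knockouts and 21.3, 74.99 and 90.2 fragments in controls, so the size of the fold change is poorly fixed. H2-Q2, too low to be tested, was at 0.126, 0.391 and 0.0717 FPKM in knockouts, against 0.200, 0.518 and 1.02 FPKM in controls, with an overlap.

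The other nonclassical genes overlapped between the groups. H2-T23 encodes Qa-1, the ligand of the natural killer receptor CD94-NKG2A, and measured 126, 142 and 160 FPKM in knockouts, against 128, 171 and 195 FPKM in controls. H2-T22, a ligand of some γδ T cells, measured 40.5, 40.2 and 55.4 FPKM in knockouts, against 38.5, 46.9 and 76.0 FPKM in controls. Both genes were highest in control 3, and their fold changes of -0.19 and -0.20 turned positive on the rescaled values (0.03 and 0.02). The deposited table gives H2-T22, H2-T23 and H2-T24 a shared locus, so reads could be split among them and their single values are uncertain. H2-Q4, with 13.3, 14.9 and 15.9 FPKM in knockouts and 11.1, 15.3 and 12.0 FPKM in controls, was the most abundant with a positive fold change (0.19, limma adjusted p = 0.615). H2-M3, which presents N-formylated bacterial peptides, measured 1.13, 1.74 and 1.139 FPKM in knockouts, against 0.626, 0.963 and 1.93 FPKM in controls.

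The remaining tested genes, 4 in number, lay near 1 FPKM and varied as much within a group as between groups. H2-T24 was at 0.232, 1.51 and 0.486 FPKM in knockouts, against 0.669, 0.655 and 1.02 FPKM in controls. H2-Bl was at 0.410, 0.376 and 0.838 FPKM in knockouts, against 0.245, 1.86 and 0.158 FPKM in controls. H2-K2, a transcribed pseudogene in GENCODE M21, was at 0.954, 0.487 and 1.21 FPKM in knockouts, against 0.420, 0.953 and 1.39 FPKM in controls. H2-Q5, like H2-Bl annotated as a polymorphic pseudogene, was at 0.679, 0.841 and 0.893 FPKM in knockouts, against 0.834, 0.424 and 0.645 FPKM in controls. Of the 15 nonclassical genes that were not tested, 10 were listed at 0 in every library, among them 6 H2-M10 genes, and H2-M2, H2-M5 and H2-Q3 stayed under 0.5 FPKM. H2-T10 was at 0.451, 0.411 and 0.730 FPKM in knockouts, against 0.165, 0.423 and 0.784 FPKM in controls.

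Class II genes varied together from mouse to mouse, and this variation was larger than the difference between the groups. H2-Aa (chromosome 17, 34282744 to 34287823), the α chain of the A molecule, measured 30.5, 37.1 and 8.05 FPKM in knockouts, against 13.6, 31.7 and 9.09 FPKM in controls. Its partner H2-Ab1 measured 25.8, 32.2 and 6.51 FPKM in knockouts, against 8.91, 24.1 and 9.37 FPKM in controls. H2-Eb1, the β chain of the E molecule, which C57BL/6 mice do not assemble for want of its α chain, measured 22.6, 32.3 and 7.26 FPKM in knockouts, against 10.0, 25.8 and 5.52 FPKM in controls. Knockouts 1 and 2 and control 2 were the 3 highest libraries for each of these genes, and knockout 3 and controls 1 and 3 the 3 lowest, so the groups overlapped completely. Cd74 followed the same split, at 65.7, 96.5 and 17.3 FPKM in knockouts, against 32.5, 57.3 and 17.5 FPKM in controls. The authors' deposited table gave q = 0.0551 for Cd74 and 0.183, 0.196 and 0.340 for H2-Ab1, H2-Eb1 and H2-Aa. The limma log2 fold changes were 0.57 (SE 0.65) for Cd74, 0.39 (SE 0.61) for H2-Aa, 0.46 (SE 0.60) for H2-Ab1 and 0.58 (SE 0.63) for H2-Eb1, with adjusted p between 0.693 and 0.794.

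**Figure D4:**
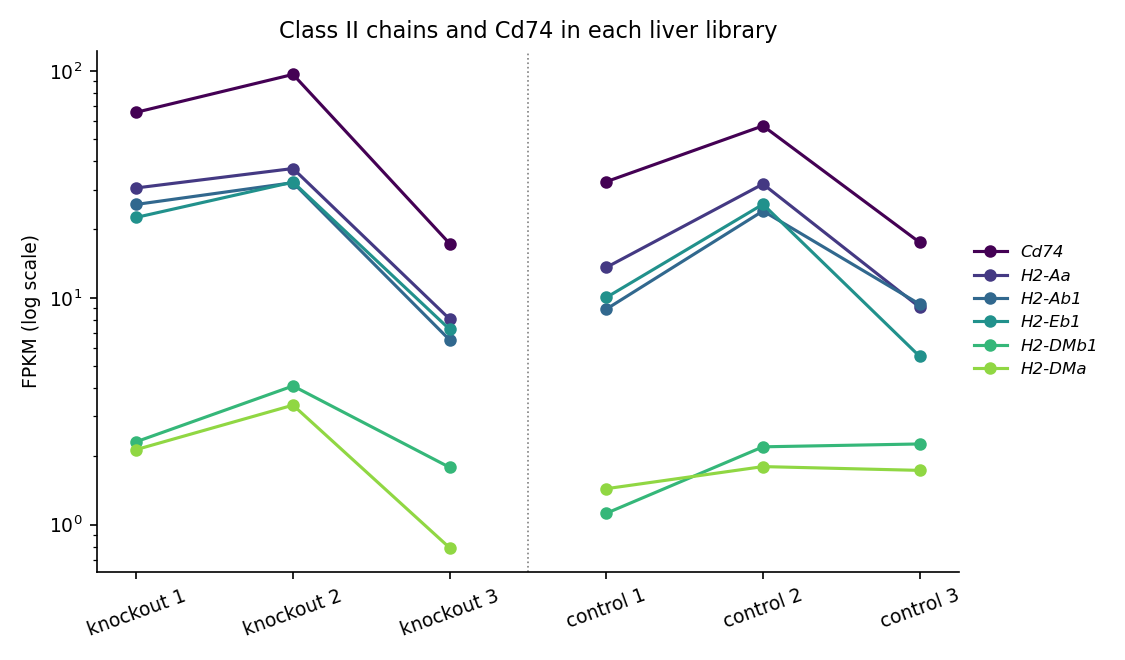
FPKM (log axis) of Cd74 and the 5 tested class II genes in each library, knockouts left and floxed controls right of the dotted line; lines join the libraries of 1 group and imply no order. Cd74, H2-Aa, H2-Ab1 and H2-Eb1 are high in knockouts 1 and 2 and in control 2 and low in the other libraries.

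The ratios of these genes within a library varied less than their levels, but they were not fixed. Cd74 over H2-Aa was 2.16, 2.60 and 2.15 in knockouts and 2.39, 1.81 and 1.93 in controls, while H2-Aa itself ranged 4.61-fold over the 6 libraries and Cd74 5.57-fold. H2-Ab1 over H2-Aa was 0.846, 0.866 and 0.809 in knockouts, against 0.655, 0.761 and 1.03 in controls. H2-Eb1 over H2-Aa was 0.742, 0.871 and 0.901 in knockouts, against 0.737, 0.814 and 0.607 in controls. Control 3 had the highest ratio for H2-Ab1 and the lowest for H2-Eb1. The DM genes followed the pattern less closely. H2-DMa measured 2.14, 3.36 and 0.790 FPKM in knockouts, against 1.44, 1.80 and 1.73 FPKM in controls. H2-DMb1 measured 2.32, 4.09 and 1.79 FPKM in knockouts, against 1.122, 2.202 and 2.27 FPKM in controls. Knockout 2 was the highest library for both DM genes, as for the other class II genes tested, and control 3 was not low in them.

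All 5 tested class II fold changes were positive, with a median of 0.39, but 0 passed limma's threshold and the median followed single mice. It was 0.05 without knockout 2, 1.04 without knockout 3, 0.87 without control 2 and 0.15 without control 3. The fold changes of H2-Aa and H2-DMa turned negative without knockout 2. The class II regulator Ciita was near the detection limit, at 0.0897, 0.334 and 0.0513 FPKM in knockouts, against 0.0137, 0.0763 and 0.0264 FPKM in controls, with knockout 2 the highest. H2-Oa, H2-Ob, H2-DMb2 and H2-Eb2, the other class II genes, reached at most 0.358 FPKM in any library and were not tested. H2-Oa and H2-Ob form H2-O, an inhibitor of H2-DM.

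Markers of the cells that make class II were read beside these values. The 7 dendritic cell markers summed to 1.48, 3.03 and 1.20 FPKM in knockouts, against 1.69, 2.01 and 1.57 FPKM in controls, and the 6 B cell markers to 1.15, 2.29 and 0.897 FPKM in knockouts, against 1.23, 0.519 and 1.40 FPKM in controls. Only Zbtb46, a dendritic cell transcription factor, was high enough among these 13 genes to be tested, and none was at 0 in every library. The 11 Kupffer cell and macrophage markers summed to 181, 406 and 162 FPKM in knockouts, against 126, 105 and 260 FPKM in controls. Knockout 2 was highest in all 3 lists and in class II, but control 2, high in class II, had the lowest macrophage and B cell sums and the highest dendritic cell sum of the controls. Control 3, low in Cd74 and H2-Eb1, had the highest macrophage sum of the controls. All 11 macrophage markers had a positive fold change (median 0.49), 0 passed limma's threshold, and the authors' deposited table called Adgre1, Cd5l, Marco and Csf1r higher (q = 0.0112, 0.0131, 0.0210 and 0.00792). The groups overlapped in all 11, and each called gene was highest in knockout 2. Csf1r, with the lowest q, was at 7.65, 20.8 and 5.21 FPKM in knockouts, against 4.44, 4.15 and 5.24 FPKM in controls. Monocyte markers summed to 32.1 to 104 FPKM in knockouts and 27.7 to 65.9 FPKM in controls, and T cell markers to 0.486 to 3.66 FPKM in knockouts and 1.16 to 1.98 FPKM in controls. The hepatocyte markers summed to 40823, 29261 and 49961 FPKM in knockouts, against 55221, 66646 and 58545 FPKM in controls, without overlap. Albumin (Alb) makes up most of this sum and was the only 1 of the 6 markers without overlap, at 23233, 17009 and 34609 FPKM in knockouts, against 37008, 43645 and 42011 FPKM in controls. Apoa1, the next most abundant, was at 7166 to 9761 FPKM in knockouts and 9390 to 12999 FPKM in controls, Tat at 622 to 1310 FPKM in knockouts and 707 to 1112 FPKM in controls (a positive fold change of 0.21) and Cps1 at 494 to 734 FPKM in knockouts and 523 to 656 FPKM in controls. As a share of each library's FPKM sum the 6 markers overlapped, at 5.93%, 4.79% and 7.16% in knockouts and 7.86%, 8.45% and 6.96% in controls.

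The most abundant monocyte markers were Lyz2, at 22.03 to 87.6 FPKM in knockouts and 21.1 to 47.6 FPKM in controls, and Plac8, at 5.49 to 12.9 FPKM in knockouts and 3.66 to 16.97 FPKM in controls. Those of T cells were Trac, at 0 to 1.34 FPKM in knockouts and 0 to 0.489 FPKM in controls, and Cd4, at 0.0899 to 0.937 FPKM in knockouts and 0.392 to 0.589 FPKM in controls. Those of B cells were Cd79b, at 0.218 to 0.479 FPKM in knockouts and 0.336 to 0.770 FPKM in controls, and Cd22, at 0.434 to 0.806 FPKM in knockouts and 0.0427 to 0.0786 FPKM in controls. The dendritic cell marker next to Zbtb46 was Clec9a, at 0.274 to 0.662 FPKM in knockouts and 0.271 to 0.429 FPKM in controls, while Zbtb46 was at 0.570 to 0.729 FPKM in knockouts and 0.691 to 0.847 FPKM in controls. Of other cells, neutrophil markers were highest in control 3 (1.90, 11.4 and 18.5 FPKM in knockouts, against 2.18, 1.18 and 51.3 FPKM in controls), led by S100a9 (1.18 to 9.62 FPKM in knockouts and 0.717 to 31.3 FPKM in controls) and S100a8 (0.259 to 7.15 FPKM in knockouts and 0 to 15.6 FPKM in controls). Natural killer cell markers stayed under 1 FPKM in sum, led by Klrd1 (0.189 to 0.732 FPKM in knockouts and 0.0983 to 0.582 FPKM in controls) and Gzma (0 to 0.311 FPKM in knockouts and 0 to 0.723 FPKM in controls). Sinusoidal endothelium markers summed to 27.7, 58.8 and 33.2 FPKM in knockouts, against 39.4, 39.5 and 50.9 FPKM in controls, led by Clec4g (14.3 to 27.3 FPKM in knockouts and 21.4 to 29.8 FPKM in controls) and Oit3 (2.26 to 6.88 FPKM in knockouts and 5.36 to 5.85 FPKM in controls). The list went both ways, with 2 positive and 4 negative fold changes (median -0.06). In it 1 gene was higher in knockouts without overlap, as were 11.3% of all tested rows. The authors' deposited table also called Laptm5, a leukocyte gene, Col1a1, a collagen of stellate cells, and Spp1, a cholangiocyte marker, higher in knockouts (q = 0.00490, 0.00226 and 0.0346). Their limma adjusted p was 0.348, 0.409 and 0.146. The 6 stellate cell markers, 4 with a positive and 2 with a negative fold change, overlapped in sum. That sum was 48.1, 125 and 88.6 FPKM in knockouts, against 47.5, 97.5 and 85.0 FPKM in controls. The part of these cell types in the levels of class I or class II genes was not tested.

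**Figure D5:**
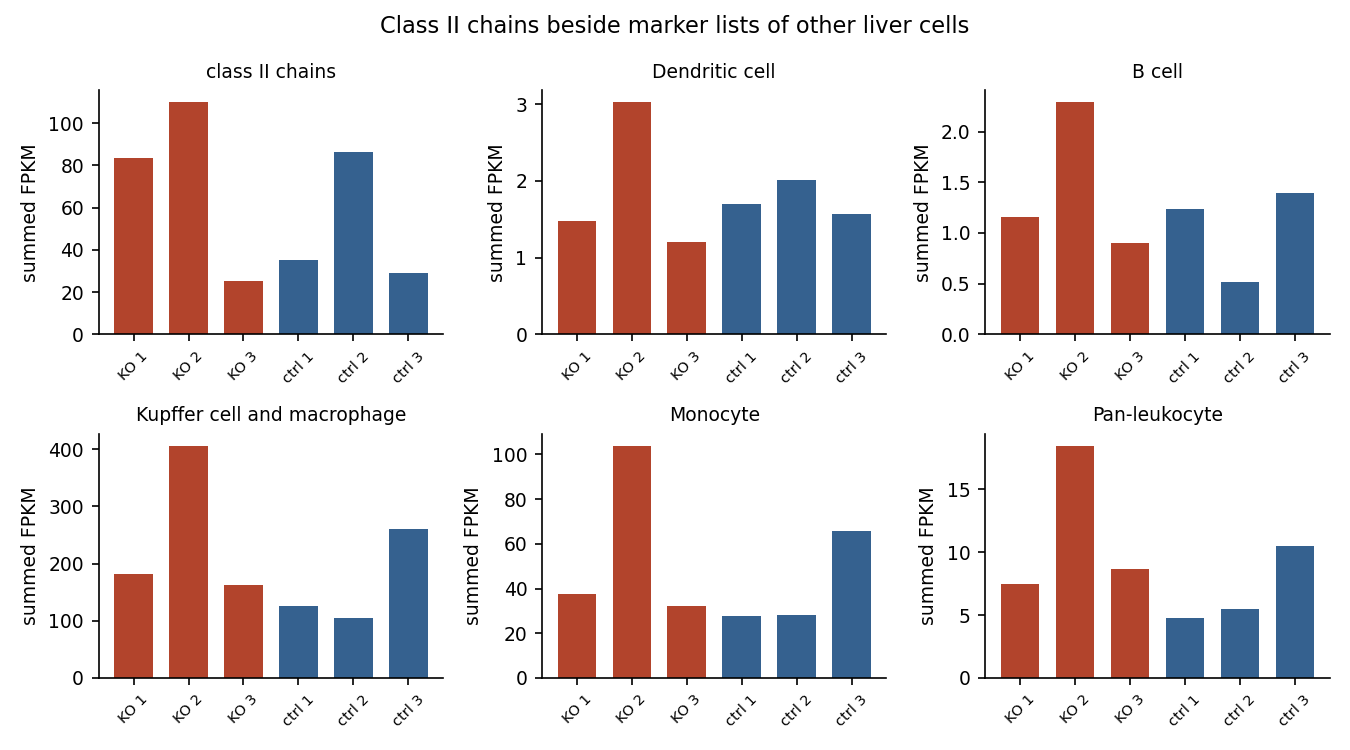
Bars give, per library, the summed FPKM of the 9 class II genes and of marker lists of dendritic cells, B cells, Kupffer cells and macrophages, monocytes and all leukocytes, with knockouts (KO) left of floxed controls (ctrl). Knockout 2 is the highest bar in every panel, whereas control 2 is high in class II (86.2 FPKM) and low in the macrophage panel (105 FPKM).

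The peptide transporter genes lay higher in knockouts, against the direction of B2m and the classical heavy chains, without passing the threshold. Tap1 measured 9.55, 10.4 and 10.9 FPKM in knockouts, against 8.70, 7.66 and 6.83 FPKM in controls. The groups did not overlap, and its log2 fold change was 0.37 (SE 0.15, limma adjusted p = 0.303). Tap2 measured 8.20, 7.69 and 10.7 FPKM in knockouts, against 7.05, 7.49 and 5.37 FPKM in controls, close but without overlap between knockout 2 and control 2 (0.37, SE 0.18, limma adjusted p = 0.393). Neither gene's groups overlapped on the rescaled values, but this was fixed in advance. Every knockout had a smaller FPKM sum than every control, so rescaling raises knockouts relative to controls. The ratio of Tap1 to B2m was 0.00461, 0.00572 and 0.00554 in knockouts, against 0.00352, 0.00238 and 0.00281 in controls. Its lack of overlap follows from that of Tap1 and of B2m in opposite directions and adds nothing to them. Tapbp measured 25.0, 25.1 and 34.0 FPKM in knockouts, against 22.3, 27.3 and 35.0 FPKM in controls, a log2 fold change of 0.00. Nlrc5 measured 4.18, 2.90 and 3.54 FPKM in knockouts, against 2.33, 4.28 and 2.41 FPKM in controls, with an overlap (0.21, limma adjusted p = 0.695). H2-Ke6 lies within the MHC but encodes a hydroxysteroid dehydrogenase. It measured 69.3, 48.6 and 59.9 FPKM in knockouts, against 71.4, 85.4 and 68.8 FPKM in controls, with an overlap between knockout 1 and control 3.

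Other genes of antigen processing were read from pathway lists, and 0 of them passed limma's threshold in either direction. Of the 5 immunoproteasome and proteasome activator genes, which make peptides for class I, 2 had a positive fold change (median -0.01), and the most abundant were Psme1 (93.8 ± 19.0 FPKM in knockouts and 94.8 ± 22.4 FPKM in controls) and Psme2 (71.1 ± 17.9 FPKM in knockouts and 93.4 ± 32.0 FPKM in controls) (SD, n = 3 each). Of the 7 peptide trimming and loading genes, 4 were positive (median 0.08). The chaperone Calr was at 257 ± 44.7 FPKM in knockouts and 344 ± 64.3 FPKM in controls (SD, n = 3 each). Erap1, the aminopeptidase that trims class I peptides in the endoplasmic reticulum, was at 22.3, 22.3 and 24.2 FPKM in knockouts, against 17.3, 17.2 and 17.1 FPKM in controls, without overlap (0.40, limma adjusted p = 0.234). The aminopeptidase Lap3 had no overlap in the other direction, at 148, 132 and 147 FPKM in knockouts, against 171, 162 and 176 FPKM in controls (-0.25, limma adjusted p = 0.434). Pdia3, a disulfide isomerase of the loading complex, was lower on average, at 137, 100 and 111 FPKM in knockouts, against 137, 183 and 166 FPKM in controls with an overlap (-0.48, limma adjusted p = 0.300). Erap1 and Pdia3 are named with their values in view. Of 9 tested genes of endosomal processing, 5 were positive (median 0.17), with the cathepsins Ctsl at 493 ± 50.9 FPKM in knockouts and 430 ± 85.8 FPKM in controls and Ctsd at 177 ± 26.6 FPKM in knockouts and 180 ± 45.4 FPKM in controls (SD, n = 3 each).

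The factors that bind or induce the SXY module also held 0 calls. Of 11 tested, 6 had a positive fold change (median 0.03), with Irf2 at 26.1 ± 5.38 FPKM in knockouts and 28.0 ± 5.22 FPKM in controls (SD, n = 3 each). All 4 tested genes of interferon-γ signalling were positive (median 0.35), with 0 past limma's threshold. Of them 3 were higher in knockouts without overlap, where 11.3% of all tested rows were. Jak1, the most abundant, was at 21.2, 24.0 and 22.6 FPKM in knockouts, against 18.8, 16.7 and 17.3 FPKM in controls, without overlap (limma adjusted p = 0.298). The receptor chain Ifngr1 was at 7.70 ± 1.23 FPKM in knockouts and 7.68 ± 1.61 FPKM in controls (SD, n = 3 each). Ifng itself was listed at 0 in 5 libraries and at 0.135 FPKM in knockout 2. Of 20 interferon-stimulated genes, 16 were positive (median 0.11), but the most abundant, the GTPase Iigp1, was at 112, 102 and 105 FPKM in knockouts, against 141, 160 and 169 FPKM in controls (-0.55, limma adjusted p = 0.182). The next, Irgm1, was at 34.8 ± 4.83 FPKM in knockouts and 31.2 ± 8.31 FPKM in controls (SD, n = 3 each).

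Class I-like molecules encoded outside the MHC had 1 positive fold change among 6 tested (median -0.23). Azgp1, a secreted class I-like protein, was at 1166, 978 and 999 FPKM in knockouts, against 1251, 1373 and 1310 FPKM in controls, without overlap (-0.33, limma adjusted p = 0.429). Cd1d1, which presents lipids to NKT cells, was at 97.0, 95.6 and 115 FPKM in knockouts, against 89.0, 97.6 and 179 FPKM in controls. Of the costimulation genes only Cd86 was high enough to be tested, at 1.27, 2.02 and 0.595 FPKM in knockouts, against 0.625, 0.671 and 2.01 FPKM in controls. The next, Cd274, was at 0.267 to 0.551 FPKM in knockouts and 0.223 to 0.469 FPKM in controls.

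Without control 3, the library whose markers stood apart in its group, 0 of the members passed limma's threshold, against 2.05% of all rows tested in that fit. The log2 fold changes were then -0.60 for H2-K1 (limma adjusted p = 0.142), -0.96 for H2-Q1 (0.119) and -0.77 for H2-Q7 (0.188).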

How the data were processed

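Liver mRNA of 3 knockout and 3 floxed control mice was measured by RNA sequencing. Libraries were made with Illumina's stranded mRNA kit, per the labels' protocols. Cuffdiff 2.2.1, STAR 2.4.2a and GRCm38 (mm10) are among the tools and builds in the submitters' processing notes; the annotation and the handling of shared reads are not stated there. The authors deposited FPKM per library, per the file headers. Their deposited comparison table holds each group's FPKM with a p-value and q-value. FPKM depends on how each library is scaled, and where that is by its total, abundant transcripts shift other genes. The median log2 fold change of all tested rows was -0.01 on the deposited scale and 0.18 with each library scaled to the same FPKM sum. 27 symbols turned into dates were restored from their identifiers. Positions, exon lengths and gene types came from GENCODE M21 on GRCm38.

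All rows with a mean of at least 0.5 FPKM were tested with limma 3.58.1 (R 4.3.3) on log2(FPKM + 1), two-sided, with a mean-variance trend and Benjamini-Hochberg adjustment over 11810 rows. The fit was first run on simulated data with less spread than the real data and larger changes than most members showed. That run therefore cannot tell how often changes of the members' size would be called. A log2 fold change is knockout minus control on that scale and understates the change of low genes. Groups of 3 cannot give an exact permutation p below 0.1. Each library was taken as 1 mouse; if not, p-values measure only the spread between libraries. Depth, read from the smallest steps of the values in 273 to 299 genes per library, was about 13200000 to 14100000 fragments and limits low genes most.

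The members and lists were chosen with earlier results of these data known. All members above the filter are given by library. Of the lists, members called by either test or else the 2 most abundant are named, and Erap1, Pdia3, Tat and Cps1 were added with their values in view. The values of 1 list gene are not reported here. Alternatives were a pseudocount of 0.1, no filter, a filter of 2 FPKM, quantile normalization, the replicate number as a block, leaving out each library, and, added after seeing the data, rescaling to a common FPKM sum.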

Additional observations from a re-analysis of the deposited data

How the results depend on the processing

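Under all 12 alternatives, 0 of the members passed limma's threshold in either direction, and the lowest limma adjusted p of any member was 0.0625, for H2-Q7 with the replicate number as a block. The replicate numbers were not used as pairs: deviations of same-numbered libraries from their group means correlated at 0.22, -0.08 and 0.30, and knockout 1 correlated best with control 2 (0.25). With the replicate block, 27 rows were called higher and 23 lower over all genes. As reported, 20 were higher and 17 lower, and these counts became 13 higher with a pseudocount of 0.1, 0 higher and 2 lower without a filter (limma; 1765 rows had an unadjusted p under 0.05 in the fit as reported), and 54 higher on rescaled values. Leaving out 1 library gave 0 to 154 higher and 2 to 88 lower, with both highest counts without control 3. Of the pathway and marker genes, 1 was called higher on rescaled values, and 0 to 1 with a library left out. The median of the classical class I genes was -0.19 after quantile normalization and -0.23 on rescaled values, against -0.45 as reported, and that of the processing genes 0.49 on rescaled values, against 0.29. Nr1h4 lost its call without a filter (-1.73, limma adjusted p = 0.0654) and when 1 library was left out (-1.82 to -1.58), control 3 excepted. The cause of these shifts was not tested.

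Of 304 member values under the alternatives, 25 changed sign, in 11 genes, none of them called. On rescaled values H2-Bl (0.026), H2-K2 (0.11), H2-Q10 (0.20), H2-Q6 (0.081), H2-T22 (0.021) and H2-T23 (0.028) turned positive, as did H2-Q10 (0.069) and H2-T23 (0.039) after quantile normalization and H2-Bl with a pseudocount of 0.1 (0.13). With 1 library left out, the lowest and highest fold changes were -0.00098 and 1.04 for H2-Aa, -0.16 and 0.48 for H2-DMa, -0.30 and 0.0056 for H2-Bl, -0.22 and 0.16 for H2-K2, -0.048 and 0.38 for H2-M3, -0.18 and 0.18 for H2-Q10, -0.27 and 0.12 for H2-Q6, -0.41 and 0.076 for H2-T22, -0.39 and 0.12 for H2-T24 and -0.15 and 0.16 for Tapbp.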
